A study of Drosophila melanogaster with 3 samples.

Results

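Intergenic peaks near genes' starts were the subject here: peaks of the Mabi protein on chromatin whose summit lay in no annotated gene and over 500 and up to 5000 bp from the nearest transcription start site (TSS) of a protein-coding gene. They were chosen by position alone, from the summits of the deposited optimal list and Ensembl gene models with transposable elements ignored, and no binding value entered the choice. The rule found 441 peaks of 5049 (8.73%, 95% Wilson interval 7.99 to 9.54), in 385 distinct intervals with 317 different nearest genes. Of these genes 232 had 1 such peak, 58 had 2, 20 had 3 and 7 had more. Of the other peaks, 2153 lay within 500 bp of a TSS, 2134 in gene models farther from one, and 321 in intergenic sequence over 5000 bp away.

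All libraries came from 1 group: whole embryos of both sexes aged 0 to 4 h, from a stable transgenic Drosophila melanogaster line with Mabi (CG15479) fused at its C-terminus to green fluorescent protein (GFP). Chromatin was sheared by sonication to 200 to 800 bp, and 3 biological replicates were deposited. The labels name both an anti-GFP precipitation and, as antibody target, CG15479; they do not give the promoter of the transgene or the state of the native gene. An untagged or untreated line was not analysed here, so each comparison sets these peaks against other sequence or other peaks of the same embryos. Embryos were taken whole and span several stages, so binding in fewer nuclei and weaker binding in each nucleus cannot be told apart.

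Sequence just upstream of a gene holds its proximal enhancers and silencers, short stretches on which transcription factors assemble and from which they act on the promoter. In the early fly embryo many such stretches are opened by the pioneer factor Zelda, whose site is CAGGTAG, and by the GAGA factor, which binds GAGAG. The genes they serve include the gap, pair-rule and dorsoventral genes that divide the embryo into its first territories. Mabi takes its name, mabiki, from the cell death by which an embryo with extra bicoid copies loses surplus cells.

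The sequences under some of the strongest peaks are shown first. Each is the 151 bases around the summit of the strongest peak of a gene, for 8 of the genes with the strongest such peaks, read 5′ to 3′ on the plus strand of the RefSeq copy of genome Release 6 (dm6). Capitals mark the Zelda motif CAGGTAG, the GAGA motif GAGAG, the GATA motif GATAAG and the repeat CACACACA on either strand, which are counted over all 441 peaks further on. The windows are chr2L:13235215-13235365 (Mabi), chr3L:20402783-20402933 (trbl), chr2L:12007316-12007466 (Rh5), chr3L:14968049-14968199 (Tom), chrX:6994649-6994799 (Inx7), chr3L:20623711-20623861 (knrl), chr3L:18403342-18403492 (rpr) and chr3R:4348542-4348692 (hkb).
Mabi: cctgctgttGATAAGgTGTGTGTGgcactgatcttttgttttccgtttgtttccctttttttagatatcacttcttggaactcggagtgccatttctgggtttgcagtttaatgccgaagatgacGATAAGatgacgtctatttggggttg
trbl: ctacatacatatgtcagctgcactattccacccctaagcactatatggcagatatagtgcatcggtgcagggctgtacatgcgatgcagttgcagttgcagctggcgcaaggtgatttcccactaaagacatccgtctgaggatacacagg
Rh5: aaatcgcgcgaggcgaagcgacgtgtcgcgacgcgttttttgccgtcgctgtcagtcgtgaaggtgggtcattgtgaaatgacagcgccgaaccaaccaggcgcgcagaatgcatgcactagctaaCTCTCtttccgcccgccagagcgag
Tom: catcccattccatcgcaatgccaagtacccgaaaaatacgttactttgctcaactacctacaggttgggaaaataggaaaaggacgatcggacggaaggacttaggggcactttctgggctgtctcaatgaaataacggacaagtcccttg
Inx7: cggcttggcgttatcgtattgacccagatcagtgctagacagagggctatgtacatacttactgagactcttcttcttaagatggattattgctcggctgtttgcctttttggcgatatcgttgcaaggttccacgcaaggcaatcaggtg
knrl: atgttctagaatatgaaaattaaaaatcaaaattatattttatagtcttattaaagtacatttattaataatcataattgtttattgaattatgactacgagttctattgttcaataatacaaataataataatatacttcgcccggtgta
rpr: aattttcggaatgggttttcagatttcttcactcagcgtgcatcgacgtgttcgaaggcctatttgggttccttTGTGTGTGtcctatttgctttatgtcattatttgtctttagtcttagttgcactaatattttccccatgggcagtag
hkb: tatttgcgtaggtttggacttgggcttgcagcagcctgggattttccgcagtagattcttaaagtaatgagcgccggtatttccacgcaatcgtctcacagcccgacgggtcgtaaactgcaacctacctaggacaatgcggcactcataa
Of these 8 windows 3 hold a marked motif. The Mabi window holds GATAAG at both ends and a TG run beside one of them, the rpr window holds a TG run, and the Rh5 window holds GAGAG on the minus strand. The other 5 hold none of the marked motifs within these bases.

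The Zelda motif is shown in its surroundings for 6 of the strongest peaks that hold it within 100 bp of the summit, chosen after their values were seen. Each line has 31 bases with CAGGTAG in capitals, read in the direction of the motif: chr3L:20402760-20402790 (trbl, plus strand), chr3L:15712135-15712165 (CG42571, plus strand), chr3R:6755619-6755649 (zen, plus strand), chr3R:12252687-12252717 (CG3942, minus strand), chr3L:13049980-13050010 (CG11279, minus strand) and chrX:15646941-15646971 (CG8117, minus strand).
trbl: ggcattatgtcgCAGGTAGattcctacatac
CG42571: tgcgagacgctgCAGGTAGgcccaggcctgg
zen: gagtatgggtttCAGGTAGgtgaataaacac
CG3942: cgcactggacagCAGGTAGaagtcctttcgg
CG11279: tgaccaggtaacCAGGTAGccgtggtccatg
CG8117: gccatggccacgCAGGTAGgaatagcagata
The flanking bases differ from line to line, and the motif is the stretch the 6 share by choice. Its centre lay 83 bp below the trbl summit in coordinate, 9 bp below that at CG42571, 16 bp below at zen, 62 bp above at CG3942, 8 bp above at CG11279 and 19 bp below at CG8117.

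The intergenic peaks were about as strong as the rest of the list, and a few were among its strongest. Deposited signal, whose scale is not stated and which is comparable within 1 list only, had a median of 496, quartiles of 366 and 743, and extremes of 291 and 5747. The median was 466 at promoter peaks, 480 in gene models and 459 at distal intergenic peaks. Of the 100 strongest peaks of the list 14 were of this kind, and of the 1000 strongest 97 were. Each replicate was read through its own 5049 strongest peaks, of which 454, 458 and 421 met the rule in replicates 1, 2 and 3 (8.80% ± 0.402, SD, n = 3). The log2 ratio of their median signal to that of the other peaks was 0.06, 0.01 and 0.08 in the 3 replicates, and 0.07 in the optimal list. All 3 had the same sign, which they lost among the 2524 strongest peaks, among lower-ranked peaks and with other TSSs or a nearer bound. The two-sided exact sign-flip permutation test gave p = 0.25, the smallest that 3 replicates allow; this design cannot reach 0.05.

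**Figure D1:**
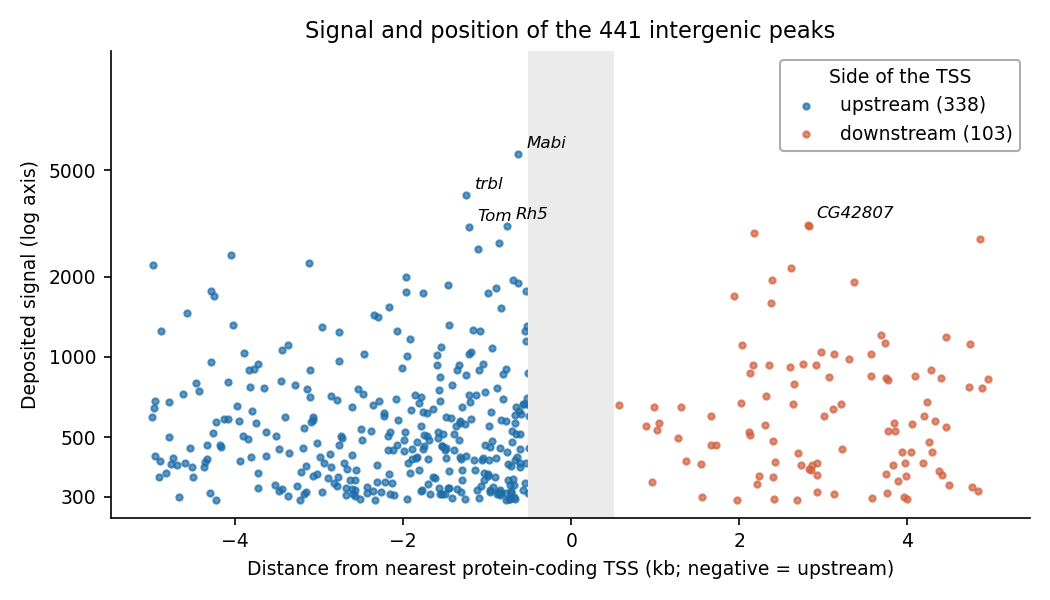
Deposited signal (log axis) of each of the 441 intergenic peaks against its distance in kb from the nearest protein-coding TSS, upstream at negative values (338 peaks) and downstream at positive ones (103 peaks); the grey band is the excluded 500 bp on either side. Mabi stands highest at 5747, trbl next at 4032, and weak and strong peaks occur at all distances upstream.

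The strongest of these peaks lay beside the gene of the precipitated protein itself. Its summit was 630 bp upstream of the Mabi TSS, in the short gap of 1833 bp towards Jhbp14, and ranked 3 of 5049 with a signal of 5747. The same interval held a second summit, within 500 bp of the TSS, and the strongest promoter peak of Mabi had a signal of 8663. Expressed over the median signal of each replicate's complete list of 30000 peaks, the interval reached 50.6, 50.2 and 70.4 in replicates 1, 2 and 3, where it ranked 1, 2 and 1. Each is the highest value of any replicate peak matched to the interval, so it may be that of the promoter summit. The labels do not say whether the transgene carries a copy of the sequence of this interval.

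trbl, which encodes a pseudokinase that holds back cell division in the gastrulating mesoderm, had the next strongest peak, 1249 bp upstream, with a signal of 4032. Its interval reached 23.6, 25.3 and 30.8 times the list median in replicates 1, 2 and 3, and a weaker summit of the same interval, 1469 bp upstream, had a signal of 1864. Both lie towards CG13248. Of the intervals with these peaks, only that at Mabi was higher in any replicate.

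Tom, a Bearded family gene that restrains Notch signalling, had more of these peaks than any other gene apart from Rh5, which also had 6. The 6 Tom summits fell in 3 intervals between BobA, another Bearded family gene, and Tom, with signals from 571 to 3060. The strongest lay 1220 bp upstream and reached 19.7, 15 and 26.7 times the list median in replicates 1, 2 and 3. The weakest interval, with summits 4230 and 4429 bp upstream, still reached 6.94, 4.61 and 7.80. The promoter of Tom itself had a peak of 1141, below the strongest intergenic one.

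Rh5 encodes a rhodopsin of the adult eye, and its 6 summits lay in 2 intervals on either side of the gene. The upstream one, towards Hacd1, had its summit at 762 bp and a signal of 3103, with 21.1, 18.3 and 23.0 times the list median in replicates 1 to 3. The downstream one, towards Wdr81, had its summit at 2179 bp and a signal of 2901, with 17.1, 17.0 and 23.3. No promoter peak was listed for Rh5.

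The widest binding was in the gap between the convergent genes CG13334 and CG42807 on 2R, where 2 intervals each held 4 summits that met the rule. Signals were between 343 and 3086 in the interval nearer CG13334 and between 296 and 3131 in the one nearer CG42807. The interval nearer CG13334 reached 20.3, 21.1 and 22.6 times the list median in replicates 1 to 3. The one nearer CG42807 reached 17.7, 18.4 and 25.2. Neither gene had a promoter peak.

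Single strong peaks stood beside genes of several kinds. wech, which is needed for the attachment of muscle to the body wall, had a peak 856 bp upstream with a signal of 2667 and 19.8, 15.9 and 18.4 times the list median. Inx7, a subunit of gap junctions, had one 1112 bp upstream with 2531 and 15.4, 17.4 and 17.2 times. Psc, a subunit of Polycomb repressive complex 1, had one 4051 bp upstream with 2413 and 12.1, 16.2 and 18.4 times. A noncoding gene started nearer to that summit, at 322 bp. For all 3 genes every replicate had the interval among its strongest peaks.

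Further down this order came knrl, a nuclear receptor-type factor related to the gap gene kni, with 2249 at 3127 bp upstream, and rpr, an activator of apoptosis, with 2211 at 4982 bp upstream. The knrl interval reached 14.7, 13.2 and 17.3 times the list median in replicates 1 to 3. The rpr interval reached 13.2, 14.3 and 16.1, and lies in the gap towards skl, another activator of apoptosis. hkb, a terminal gap gene, had 1988 at 1971 bp upstream and reached 12.1, 10.1 and 17.0. The 20 strongest peaks were completed by sll, a transporter of the sulfate donor PAPS (1947), IFT57, a protein of the transport in cilia, in the gap towards drm (1935), CG30114 (1913) and RasGAP1, a brake on Ras (1890).

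**Figure D2:**
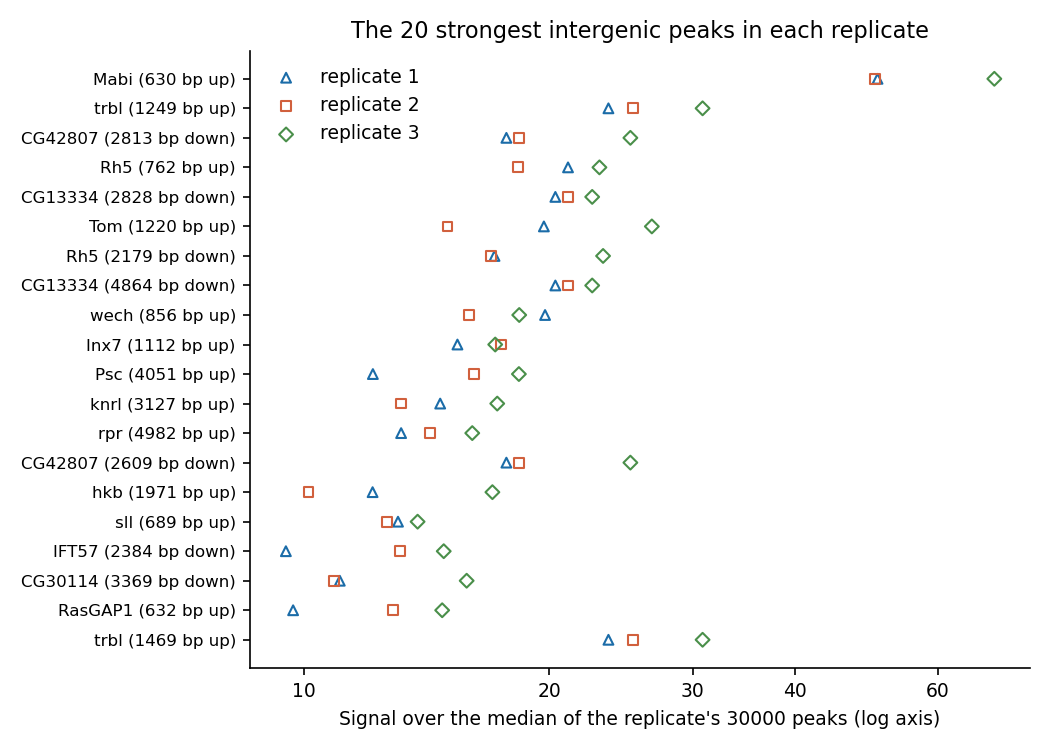
Replicate signal at the intervals of the 20 strongest intergenic peaks, divided by the median of that replicate's 30000 peaks (log axis). Each value is the highest of any matched peak in 1 of the 3 replicates. Rows are peaks by nearest gene and distance. Summits of 1 interval share its values, which at Mabi and sll may be those of a promoter summit. Mabi lies at 50.2 to 70.4 in the 3 replicates, and replicate 3 is the highest in 18 of the 20 rows.

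The peaks recurred in the replicates about as often as the list as a whole. Of the 441, 319 (72.3%, 95% Wilson interval 68.0 to 76.3) overlapped one of the 5049 strongest peaks of every replicate by at least 50% of either peak, beside 71.2% of all 5049 peaks. A further 78 did so in 2 replicates and 44 in 1. In replicates 1, 2 and 3 the matched numbers were 371, 400 and 386 (84.1%, 90.7% and 87.5%), beside 83.4%, 90.8% and 87.9% of all peaks. With the complete lists, 433 (98.2%) were matched in all 3 replicates, beside 98.1% of all peaks. The optimal list was itself made from these replicates, which also shared 1 control file, so these matches are no independent check.

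Replicate summits lay close to those of the optimal list, with median offsets of 22, 21 and 21.5 bp in replicates 1, 2 and 3. For each of the 433 the highest of its 3 relative signals was set against the lowest, and the ratio had a median of 1.46 and a range of 1.01 to 5.52. In 54 of them it was above 2. Replicate 3 gave the highest relative signal in 250 of the 433, replicate 2 in 97 and replicate 1 in 86. Across the 433 peaks, which share their libraries, the Spearman rank correlation was 0.80 between replicates 1 and 2, 0.84 between 1 and 3, and 0.86 between 2 and 3. Summits of 1 interval share their replicate signals, so the 433 are not separate points in these counts and correlations.

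Peaks were denser in this sequence than in intergenic sequence farther from genes. The rule covers 13.1 Mb, or 9.76% of the chromosome arms, so the 441 peaks came to 33.7 per Mb. Distal intergenic sequence, 24.0 Mb, held 13.4 per Mb, and the whole list averaged 37.7 per Mb over the arms. The replicates' own peaks gave 34.7, 35.0 and 32.2 per Mb in replicates 1, 2 and 3, against 14.2, 13.8 and 12.9 in distal sequence. The log2 ratio was 1.34 in the optimal list and 1.32 ± 0.028 (SD, n = 3) over the replicates, higher near genes in 3 of 3 (exact sign-flip p = 0.25, the smallest possible). Annotated transposable elements made up 6.30% of the sequence near genes and 13.1% of distal sequence. Without them the densities were 35.8 and 15.2 per Mb and the log2 ratio 1.23.

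Lower in the pooled list the rule took a similar share, 2445 of the 24951 peaks below the optimal list, or 9.8%. By arm, the density ran from 28.9 per Mb on X (57 peaks, exact Poisson interval 21.9 to 37.4) and 30.6 on 3R to 34.6 on 3L, 34.7 on 2L and 38.4 on 2R. Chromosome 4 stood at 71.9 per Mb from 7 peaks, with an interval of 28.9 to 148 that overlaps those of all other arms. These intervals cover counting error only and take peaks as independent, although 113 of the 441 shared an interval with another summit.

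Close to the TSS, upstream sequence held more peaks than downstream sequence. Of the 441 peaks 338 (76.6%, 95% Wilson interval 72.5 to 80.4) lay upstream of their nearest TSS, while 69.3% of the bases that meet the rule do. The difference was 6.25, 6.90 and 5.53 percentage points in replicates 1, 2 and 3 (mean 6.23 ± 0.69, SD, n = 3), above 0 in all of them, with the same smallest exact p of 0.25. Downstream bases that meet the rule close to a TSS are those past the end of a short gene.

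From over 500 to 1000 bp the density was 42.1 peaks per Mb upstream (77 peaks, exact Poisson interval 33.2 to 52.6) and 15.7 downstream (4 peaks, 4.28 to 40.2). From over 1000 to 1500 bp it was 39.8 upstream and 12.1 downstream, and from over 1500 to 2000 bp 44.8 upstream and 14.4 downstream. Beyond 2000 bp the sides were alike within their intervals, with 34.2, 31.7 and 32.4 upstream and 35.1, 28.9 and 26.7 downstream in the bins up to 3000, 4000 and 5000 bp. In each of the first 3 bins the lowest replicate upstream was above the highest downstream, and the downstream bins rest on 4, 5 and 7 peaks. Median signal was 478 upstream and 559 downstream.

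**Figure D3:**
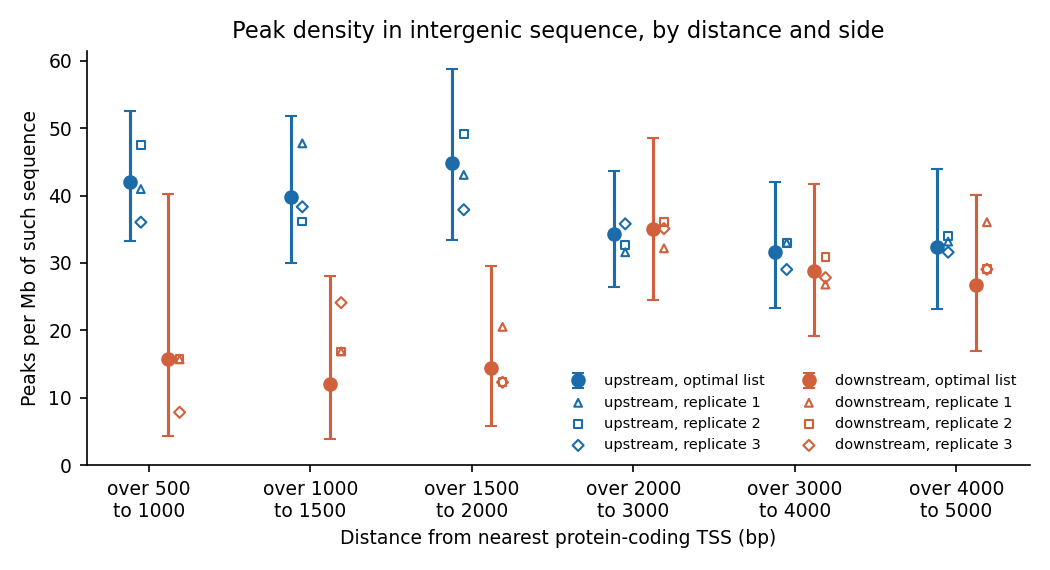
Peaks per Mb of intergenic sequence by distance from the nearest protein-coding TSS in bp, upstream (blue) and downstream (orange). Filled points are the optimal list with 95% exact Poisson intervals, open symbols the 3 replicates' own strongest peaks; up to 2000 bp upstream bins stand at 39.8 to 44.8 and downstream bins at 12.1 to 15.7.

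Density also differed with the layout of the flanking genes. Between divergent genes, which share the gap as upstream sequence, 182 peaks lay at 44.8 per Mb (exact Poisson interval 38.5 to 51.8). Between genes in tandem 201 peaks lay at 29.4 per Mb (25.5 to 33.8), and between convergent genes 58 lay at 27.1 (20.6 to 35.1). Over the replicates the densities were 45.4 ± 2.42, 29.5 ± 1.77 and 27.3 ± 0.714 per Mb (SD, n = 3), and the lowest divergent value, 42.6, was above the highest tandem one, 30.9. The gap between flanking genes had a median of 9983 bp at the peaks and 9740 bp over the bases that meet the rule.

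The peaks nearest the bounds of the rule had signals in the range of the others. Just inside the lower bound were cv-c at 503 bp with a signal of 663, and CG15480 at 504 bp with 457. Just outside it were sll at 489 bp with 746 and CG16779 at 495 bp with 720. Just inside the upper bound were rpr at 4982 bp with 2211 and bun, a TSC-22 family factor, at 4985 bp with 597; just outside were bard at 5020 bp with 318 and CG10589 at 5050 bp with 1137. For 73 of the 441 a noncoding gene started nearer than the protein-coding one, and 23 were within 500 bp of such a start. No such share of the bases that meet the rule stands beside these counts, so neither can be called high or low.

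Genes beside these peaks had promoter peaks more often than all genes with such sequence, themselves included. Of the 317 nearest genes 109 (34.4%, 95% Wilson interval 29.4 to 39.8) had a summit within 500 bp of a TSS, beside 11.9% of the 6403 genes nearest to any base that meets the rule. The replicates gave 35.8%, 33.5% and 34.0%, against 10.8%, 12.1% and 11.4% of those genes. The difference was 22.5 percentage points in the optimal list and 23.0 ± 1.84 (SD, n = 3) over the replicates, above 0 in 3 of 3 (exact sign-flip p = 0.25, the smallest possible). Genes nearest to distal intergenic peaks had one in 53 of 182 cases (29.1%, 23.0 to 36.1), an interval that overlaps that of the 317.

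The gene on the other side of the gap had a promoter peak less often than the nearest one. Of the 433 peaks whose nearest TSS belonged to a flanking gene, the nearest gene had a promoter peak in 163 cases (37.6%, 33.2 to 42.3) and the gene on the other side in 115 (26.6%, 22.6 to 30.9). Counted per gene, 11.9% of the 6403 genes nearest to any base that meets the rule had one. Both shares count the same summits, so a gene with several summits counts several times. Their intervals take summits as independent and do not use the pairing. Only 12 of the 441 shared their interval with a promoter summit.

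Of 15 lists of genes of known function, the gap and the pair-rule lists had the largest shares of genes nearest to such a peak in the optimal list. Of all 13968 protein-coding genes 2.27% were, and 33.7 peaks fell on each Mb of the sequence that meets the rule. The gap, terminal and head genes had 10 of 20 members nearest to a peak, with 24 peaks at 278 per Mb (exact Poisson interval 178 to 414). Those with the strongest peaks were knrl and hkb, given above, and cad, a homeodomain factor of the posterior, with 1752 at 1963 bp upstream. hb, a gap gene of the anterior, had 4 summits in 3 intervals with signals from 302 to 1017; kni, slp1, slp2, croc, oc and fkh were the others. In replicates 1, 2 and 3 the list's share was 60%, 55% and 55%, against 2.28%, 2.39% and 2.10% of all genes.

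The pair-rule and odd-skipped list had 4 of 11 genes: hry, a repressor of the bHLH class (1461 at 4572 bp upstream), odd (957 at 4287 bp), ftz (851 at 4090 bp downstream) and opa. The hry promoter peak was stronger, at 3716. The dorsoventral, Dpp and mesoderm list had 8 of 35 genes and 189 peaks per Mb, led by zen, a homeodomain gene of the dorsal side (1319 at 1456 bp upstream). srp, a GATA factor of blood and fat body, had 1043 at 1190 bp upstream. Doc2, a T-box factor of the dorsal ectoderm, had 3 summits of up to 801.

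The strongest intervals of zen, srp and cad were among the strongest peaks of every replicate. zen reached 9.46, 7.52 and 9.41 times the median in replicates 1 to 3, srp 8.75, 5.47 and 7.73, and cad 12.8, 9.68 and 13.4. hb was less even: its strongest interval reached 6.89, 5.28 and 9.34, and its summit with a signal of 580 had no match in the complete list of replicate 1. Its weakest summit, with 302, was matched by a strong peak in 1 replicate only. The strongest kni interval reached 1.94, 3.75 and 3.35, and in replicate 1 it ranked 5248, outside the strongest peaks.

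The early zygotic list had 5 of 20 genes and 209 peaks per Mb, among them 18w (1247) and Tollo (1238), both Toll-type receptors of the elongating germband, and zld (678), which encodes Zelda. The Notch list had 5 of 23 genes and the highest density, 294 per Mb (152 to 514), with 12 peaks. Beside Tom these were led by E(spl)m7-HLH (1768 at 544 bp upstream) and E(spl)m5-HLH (1247 at 1088 bp), repressors switched on by Notch. The neurogenic list had 5 of 20 genes, led by the proneural genes amos (755) and ato (720) and the Sox gene D (563).

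The cell death list had 5 of 21 genes: Mabi and rpr, given above, hid (1148 at 541 bp upstream), Xrp1 and egr. hid, like rpr, blocks the inhibitors of caspases, and its interval reached 7.58, 6.99 and 13.03 times the list median in replicates 1 to 3. That interval also holds a promoter summit, to which these values may belong. The chromatin list had 4 of 32 genes, Psc, zld, ph-d and dve, a homeodomain protein (1082 at 940 bp upstream). The strongest Psc summit and the zld summit lay 322 and 178 bp from a noncoding gene start. With TSSs of all genes the chromatin list had 2 genes.

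In the remaining lists the interval of the density included that of all genes or lay below it. The segment polarity, Wnt and Hedgehog list had 2 of 23 genes, the ligand Wnt2 (595) and the receptor fz (315), at 29.0 peaks per Mb. The Hox list had Scr alone of 12 genes (455), the ecdysone list Cyp18a1 of 21 (347), an enzyme that breaks the hormone down, and the receptor signalling list upd1 of 23 (1191), a ligand of the JAK-STAT pathway. Ribosomal protein genes had 1 of 92, RpL22 (894). A promoter peak was listed for 38 of the 92, beside 15.1% of all protein-coding genes and 15 of the 20 gap genes. Chemoreceptor genes had 5 of 179, led by Gr93a (716), Ir40a (630) and Gr93d (536), at 18.4 peaks per Mb (6.77 to 40.1), and no promoter peak. Cuticle protein genes had 0 of 119 in the optimal list, which allows up to 22.7 per Mb, and 0.84% in replicate 1.

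**Figure D4:**
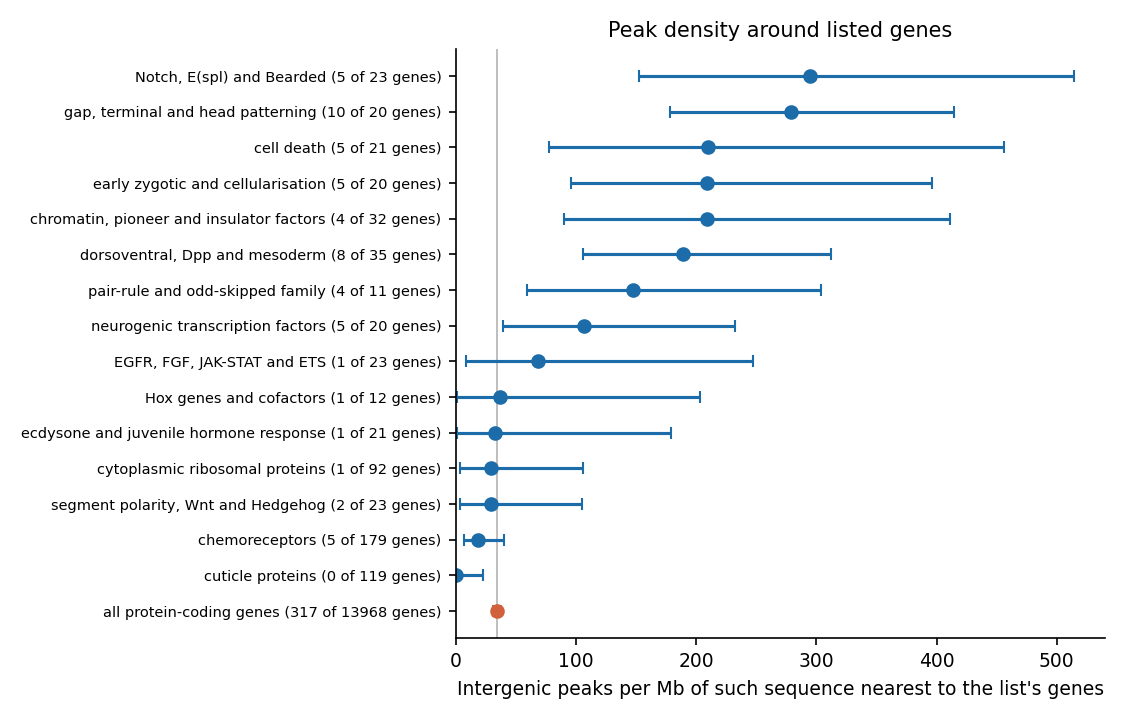
Intergenic peaks per Mb of sequence that meets the rule and is nearest to a gene of each of 15 lists, with all protein-coding genes at the bottom; points carry 95% exact Poisson intervals and labels the number of genes nearest to a peak. The Notch and gap lists stand at 294 and 278 per Mb, chemoreceptors and cuticle proteins at 18.4 and 0, all genes at 33.7.

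Over all lists, 55 genes were nearest to a peak, 39 of them with a promoter peak of their own, beside 109 of all 317 nearest genes. In 16 of the 39 the promoter peak was the stronger. Whether or not nearest to an intergenic peak, listed genes had promoter peaks in between 15 of 20 (gap) and 0 of 179 cases (chemoreceptors). For 46 of the 55 the strongest intergenic peak lay upstream, while of all 441 peaks, not 1 per gene, 76.6% did. The lists were chosen with earlier results of these data known, and peaks of 1 gene share its surroundings, so the counts describe these genes and carry no test.

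CG43131 stood out for dispersed binding, with 5 summits in 5 separate intervals on both sides of its start and signals from 510 to 867. Its strongest, 809 bp upstream, reached 5.41, 5.06 and 6.94 times the list median in replicates 1 to 3. CG30114 had 4 summits in 3 intervals, with signals from 467 to 1913. Neither gene had a promoter peak.

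Several short motifs were more or less frequent at the summits than over all sequence that meets the rule. Windows of 201 bp around the 441 summits were searched for 26 motifs on both strands, and 64502 windows tiled over all sequence that meets the rule gave the background. CAGGTAG, the Zelda motif, was in 40 member windows (9.07%, 95% Wilson interval 6.73 to 12.1), beside 0.926% of tiled windows. The replicates' own peaks held it in 9.25%, 8.08% and 9.03% of windows in replicates 1, 2 and 3. The 40 windows lay beside 39 genes, 27 of them were upstream, and their median signal was 558, against 488 in windows without the motif.

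GATAAG, the core of GATA factor sites, was in 92 windows (20.9%, 17.3 to 24.9), beside 8.3% of tiled windows, and in 20.04%, 19.4% and 19.95% in replicates 1 to 3. Those 92 had a median signal of 472, against 499 without it. GAGAG was in 144 windows (32.7%, 28.4 to 37.2), beside 19.5%, and in 32.8%, 32.5% and 32.1% in the replicates. CACACACA, a CA repeat, was in 53 windows (12.02%, 9.31 to 15.4), beside 4.46%, and in 9.69%, 12.4% and 10.5% in the replicates.

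CGATA, part of the site of the insulator protein BEAF-32, was in 119 windows (27.0%, 23.1 to 31.3), beside 19.2%, and in 26.7%, 27.7% and 27.1% in replicates 1 to 3. It can overlap GATAAG by 4 letters as CGATAAG, and 46 windows held both. Of the 441, 7 windows held CAGGTAG with GATAAG, 10 held CAGGTAG with GAGAG, and 179 held neither of these nor GAGAG or CACACACA.

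AT-rich motifs were scarcer than in the tiled windows. TATAAA was in 51 windows (11.6%, 8.91 to 14.9), beside 24.9%, and in 13%, 12.7% and 13.3% in replicates 1 to 3. TAATTA, a homeodomain core, was in 38 (8.62%, 6.34 to 11.6), beside 15.8%, and in 10.1%, 9.39% and 6.41%. TTTATG, a Caudal motif, was in 94 (21.3%, 17.7 to 25.4), beside 25.4%, and in 21.4%, 20.7% and 20.4%. For all 8 of these motifs the 3 replicates differed from the tiled windows in 1 direction, and the two-sided exact sign-flip permutation test gave its smallest value, p = 0.25, each time. So did 21 of all 26 motifs searched, 13 of them among the 18 not described here, so that a shared direction does not set these 8 apart.

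Base composition moved with these values. The member windows averaged 45.5% GC, the tiled windows 40.3%, and windows 1000 bp to either side of the summits 42.2%. Among windows whose GC content lay between the quartiles of the member windows (42.3% to 50.2%, 231 member and 21505 tiled windows), the difference was 10.2 percentage points for CAGGTAG, 15.02 for GATAAG, 9.56 for CGATA and 9.25 for GAGAG. It was 3.72 for CACACACA, −4.92 for TATAAA, −3.20 for TAATTA and −1.31 for TTTATG.

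**Figure D5:**
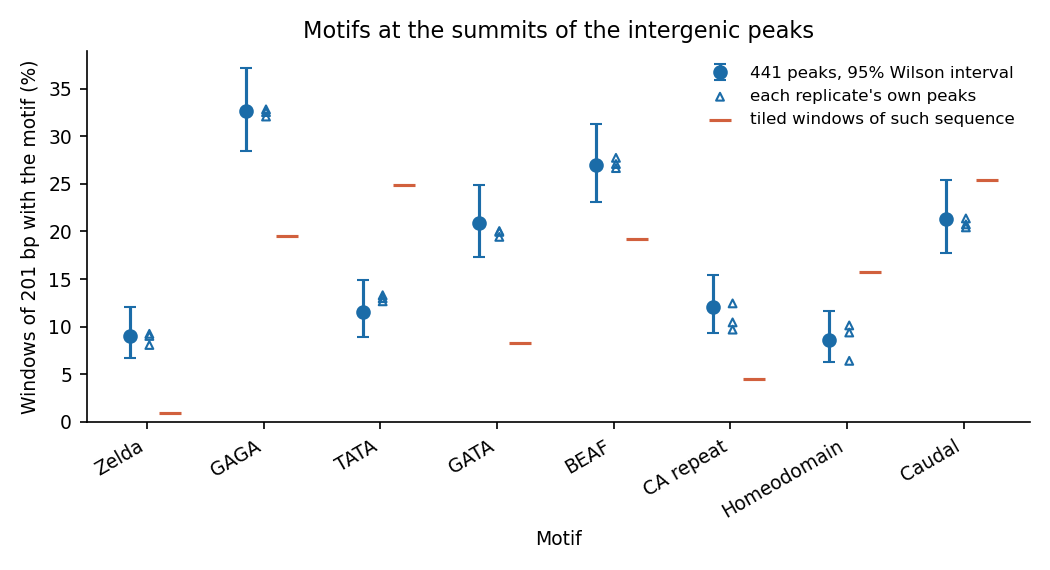
Percent of 201-bp windows that hold each of 8 named motifs: filled points, the 441 intergenic peaks with 95% Wilson intervals; open triangles, each of the 3 replicates' own peaks; orange dashes, windows tiled over all such sequence. Zelda, GAGA, GATA, BEAF and CA repeat points lie above the dashes and TATA, Homeodomain and Caudal points below them.

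Along the peaks, GATAAG was most frequent just below the summit, with 1.95 occurrences per kb in the 50 bp below it in coordinate and 0.816 in the 50 bp above, against 0.408 and 0.454 in the outermost 50 bp of the 500 bp searched on either side. CAGGTAG was at 0.726 per kb in the 50 bp below the summit and at 0.363 in the 50 bp above; the next bin on either side was at 0.499, against 0.136 in both outermost bins. TATAAA was at 0.726 and 0.907 next to the summit and at 2.00 and 1.41 in the outermost bins. GAGAG formed a broad plateau, from 2.95 per kb at 150 to 200 bp below the summit to 2.90 at 50 to 100 bp above it.

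Peaks elsewhere in the list differed from the tiled windows in the same direction for all 8 motifs. The tiled windows cover only intergenic sequence near genes, while most of those other peaks lay at promoters or in gene models. Binding and kind of sequence cannot be told apart in that comparison. GAGAG was in 32.7% of the intergenic windows near genes and 35.6% of all other peaks, CGATA in 27.0% and 30.9%, and CACACACA in 12.02% and 13.98%. TATAAA was in 11.6% and 16.5%, TAATTA in 8.62% and 8.46%, and TTTATG in 21.3% and 18.1%. CAGGTAG was in 9.07% and 5.64%, and GATAAG in 20.9% and 18.2%. By kind of peak, shares were taken for intergenic and promoter peaks but not for peaks in gene models, whose place is therefore not shown. CAGGTAG was in 9.07% of the intergenic windows near genes, 7.48% of distal intergenic ones and 4.13% of promoter ones. GATAAG was in 20.9%, 20.9% and 13.4% of the same windows. Sites typical of promoters of constantly active genes went the other way: TATCGATA, the DREF site, was in 0.227% of the intergenic windows near genes, 1 window of 441, and 4.18% of promoter ones, beside 0.433% of tiled windows. GGTCACACT, the M1BP motif, was likewise in 0.227% and 3.34%, beside 0.0822% of tiled windows.

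The 6-letter words with the largest excess over flanking windows in the list's other peaks were also raised near genes. CACACA was in 29.5% of the intergenic windows near genes and 14.3% of their flanks 1000 bp away, ACACAC in 26.5% and 13.9%, CGCACA in 21.3% and 11.0%, GCACAC in 21.8% and 11.6%, and GCGCAA in 13.8% and 7.71%. These words overlap each other. Ranked within the intergenic windows themselves against tiled windows, which is a description only, CAGGTA came first of 2080 words, with 17.9% against 4.01% of tiled windows, and 12.7% of the other peaks.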

How the data were processed

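The authors deposited peak lists on dm6: 30000 peaks for each of 3 replicates and for their pool, and an optimal irreproducible discovery rate (IDR) list of 5049. Per the deposited README texts, every replicate was called against 1 common control, and the IDR list was derived from the others. The deposited signal value has no stated scale, and the deposited −log10 q column entered no result. No source used here names the peak caller, aligner or read depth. Intervals (95%, Wilson for shares, exact Poisson for densities) cover counting over peaks only.

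Gene models and transposable elements came from Ensembl release 115 and bases from RefSeq, on arms 2L, 2R, 3L, 3R, 4 and X; no sequence of 2R is printed. Replicate values used each replicate's 5049 strongest peaks. Differences over replicates had an exact two-sided sign-flip permutation test, whose smallest p is 0.25. Python 3.11.15, numpy 2.4.6 and scipy 1.17.1 were used, with the steps tested on simulated data. Genes were named by strength (the 20 strongest peaks, up to 3 genes per list), number (4 or more summits in 3 or more intervals) or position at the bounds; other listed genes and those with printed Zelda motifs were added after their values were seen. The members, motifs and lists were chosen with earlier results of these data known.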

Additional observations from a re-analysis of the deposited data

How the results depend on the processing

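Computed on the pooled or optimal peaks, the density, upstream, promoter peak, signal and 8 motif differences kept their direction under every alternative run: each replicate left out, the 2524 strongest peaks of the list, 1 summit per interval, other distance bounds, TSSs of all genes, lower-ranked pooled peaks, other motif windows and backgrounds and, added after seeing the data, like GC content and no transposable elements. The signal difference was close to 0 in several: its log2 value of 0.07 came to 0.01 among the 2524 strongest and among the lower-ranked peaks and 0.02 with TSSs of all genes, with replicates of both signs (exact sign-flip permutation p = 1 each), and to 0.06 up to 2500 bp (p = 0.5). Among the 2524 strongest peaks the upstream difference was 3.98 percentage points in place of 7.35, that of CGATA 2.77 in place of 7.77 and that of TTTATG −2.15 in place of −4.11. Against windows 1000 bp from the summits the differences were 8.28 for GAGAG, 3.97 for CGATA, −3.40 for TAATTA and −1.25 for TTTATG. Among lower-ranked pooled peaks the differences were smaller, with a log2 density ratio of 0.87, an upstream difference of 3.95 percentage points, a promoter peak difference of 12.1 percentage points and a CAGGTAG difference of 0.383. The share of peaks matched in the replicates, 72.3%, moved with its definition. It was 76.6% to 81.4% with a replicate left out, when only 2 have to match, 97.4% among the 2524 strongest, 67.8% with 1 summit per interval, 56.9% for summits within 100 bp and 98.2% with complete replicate lists. Gene list counts were mostly lower with peaks up to 2500 bp: 6 of 20 gap genes and 0 of 11 pair-rule genes. No paired analysis was possible because the samples form 1 group. Read depth is unknown here, so weak peaks cannot be weighed by it.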
